A study of Mus musculus with 8 samples.

Results

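The proteasome is the protease complex that degrades proteins marked with ubiquitin, and its subunit genes are considered here in sorted wild-type (WT) and cancer cells of mouse small intestinal organoids. The genes were chosen by name. They are the genes whose symbol begins with Psm, a letter from a to g and a number, without Psmb8, Psmb9 and Psmb10, which encode the catalytic subunits of the immunoproteasome. This rule took 44 of the 13420 genes in the count tables. Of these, 43 encode proteasome subunits, activators, a regulator or assembly chaperones. The remaining gene, Psmc3ip, has a similar symbol but encodes a factor of meiotic recombination. Genes with too few reads were left out of the tests, which left 42 of the 44 among 5264 tested genes. Psmc3ip, with 0 to 31 reads per library, and the activator gene Psme4, with 0 to 38, were not tested.

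Both kinds of organoid were grown in Noggin, R-spondin1 and EGF. The WT cells carried mTmG, which labels membranes with tdTomato, on a C57BL/6 background. The cancer cells carried, among their labelled alleles, Villin-CreERT2, Apc fl/fl and Tr53 fl/R172H. They were of strain C57BL/6 (F6) and expressed Dendra2. They thus combine floxed or mutant alleles of Apc and the p53 gene with a Cre recombinase that the Villin promoter drives in intestinal epithelium, and no single allele can be set apart from the others. Cells were cultured pure or mixed at 2 parts WT to 1 part cancer, sorted 3 days later as live tdTomato or Dendra2 cells, and sequenced in bulk by CEL-Seq. This method reads the 3' end of transcripts. The 4 groups have 2 libraries each, named by their wells. A01 and A05 are pure WT, A02 and A06 mixed WT, A03 and A07 pure cancer, and A04 and A08 mixed cancer cells. Nothing in the labels says whether the 2 libraries of a group come from separate cultures or animals, so the tests may measure technical spread alone.

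Depth ran from 73109 reads on genes in A02 to 4733121 in A04. In A02, 26 of the 44 genes had fewer than 10 reads and 3 had none, whereas in A04 every gene had at least 10. All 8 epithelial marker genes were in the tables, with a summed level of 4529 to 15440 CPM. CPM are read counts scaled so that libraries of unequal depth can be compared. The sum rested largely on Krt8, Krt18 and Krt19, at 590 to 8498 CPM in every library. Not every gene of the list was present in cancer cells. Cdx1 read 13.1 to 276 CPM in the WT libraries and 0 to 0.783 CPM in the cancer libraries. Cdx2 read 52.4 to 63.4 CPM in the WT libraries and 0 to 26.2 CPM in the cancer libraries. Enterocyte markers summed to 674 to 1403 CPM in the WT libraries and to 0 to 10.5 CPM in the cancer libraries. Of the 5 immune markers looked for, only Cd68 had an entry in the read counts, at 0 to 68.8 CPM. Of the 5 stromal and endothelial markers only Vim and Col1a1 had one, and these summed to 0 to 7.31 CPM. In bulk RNA, fewer cells with a transcript and less of it per cell cannot be told apart.

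The 26S proteasome is a barrel, the 20S core particle, closed at its ends by the 19S cap. The core stacks rings of alpha subunits, which gate the entrance, and rings of beta subunits, among which Psmb5, Psmb6 and Psmb7 encode the catalytic ones. In the cap, the base unfolds the substrate with a ring of ATPases (Psmc genes), and the lid removes the ubiquitin chain. In many cell types the subunit genes are transcribed together, and a transcription factor encoded by Nfe2l1 raises them when proteasome activity is low. Cells of the intestinal epithelium divide and renew quickly. They rely on the proteasome for, among others, the turnover of cyclins and of beta-catenin, which APC helps to mark for degradation.

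The genes of the rule took 0.503% to 0.835% of the reads of a library. In pure WT cells their share was 0.792% (A01) and 0.661% (A05). Mixed WT cells had shares of 0.745% (library A02) and 0.503% (library A06). In pure cancer cells it was 0.835% (A03) and 0.662% (A07), and mixed cancer cells gave 0.817% (A04) and 0.591% (A08). The group means of the WT cells were 0.727% ± 0.0924 (SD, n = 2) when pure and 0.624% ± 0.172 when mixed, and those of the cancer cells 0.748% ± 0.123 when pure and 0.704% ± 0.159 when mixed. Thus the 4 groups overlapped, and the largest gap between group means was smaller than the SD within mixed WT cells. In the shallowest library, A02, the 95% Wilson interval of the share was 0.686% to 0.810%. Such intervals treat reads as independent and leave out the spread between libraries. Reads include amplification copies, and the 545 reads in A02 came with 309 molecule barcodes, so the interval understates counting error.

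**Figure D1:**
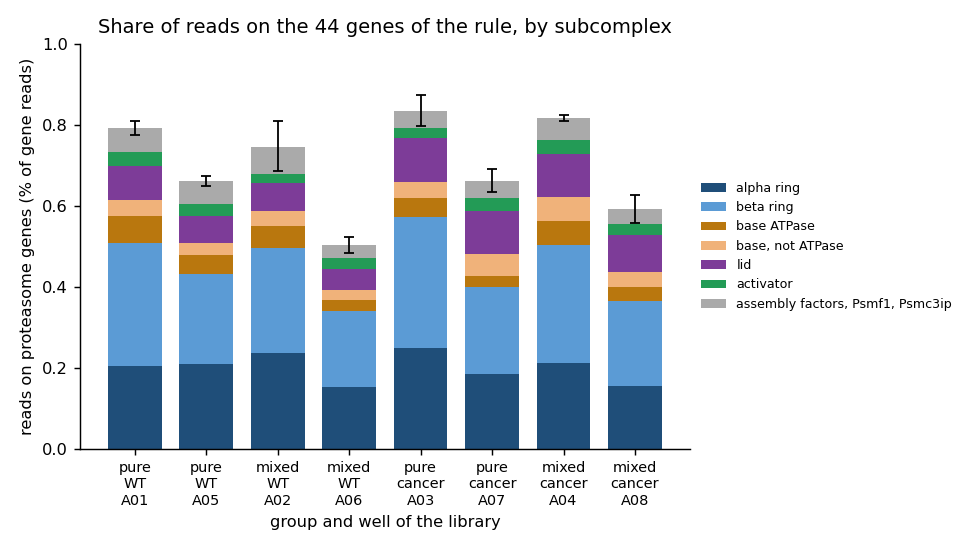
Reads on the 44 genes of the rule as a percentage of all reads on genes (y axis) in each of the 8 libraries, named by group and well (x axis), stacked by subcomplex. Error bars are 95% Wilson intervals of the total, which treat reads as independent and leave out the spread between libraries. Within each group the library from wells A01 to A04 stands above its partner from wells A05 to A08, and the groups overlap.

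The core and the cap were also compared within each library. Reads on the base and lid genes of the cap per read on the alpha and beta genes of the core numbered 0.371 and 0.333 for pure WT cells (lower well first) and 0.323 and 0.308 for mixed WT cells. For cancer cells the ratios were 0.341 and 0.466 when pure, 0.451 and 0.448 when mixed. The ratio was above every WT library in 3 of 4 cancer libraries, while pure cancer library A03 lay within the WT range. The lid gene Psmd8 alone gave 217 of the 622 cap reads in A07 and 107 of the 329 in A08, against 356 of 2083 in A01. In molecule barcodes, cap and core had 344 and 706 in A07, 196 and 434 in A08, and 983 and 1905 in A01. By barcodes the ratio was thus lower in A07 and A08 than in pure WT library A01, while A04 (2676 and 3168) stayed above it. The catalytic genes Psmb5, Psmb6 and Psmb7 together took 0.0448% to 0.0962% of reads, with both extremes in cancer libraries.

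The first question the design poses is what happens to WT cells that share an organoid with cancer cells. Here, 0 of the 42 tested proteasome genes passed an adjusted p of 0.05 (edgeR quasi-likelihood test, adjusted over all tested genes), where 0.741% of all tested genes did between mixed and pure WT cells. None passed an unadjusted p of 0.05 either, against 9.67% of all tested genes. DESeq2 on the same 8 libraries also called 0. The share of all genes that DESeq2 called is not given, so its counts here and below lack a background to compare with. The median log2 fold change of the 42 genes was -0.25, beside -0.098 over all tested genes, and 12 values were positive and 30 negative. Both libraries of mixed WT cells lay above both of pure WT cells for 4 of the 42 genes (9.52%), against 15% of all genes, and below them for 10 (23.8%), against 28.8%. These shares were near or under those of all genes.

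In the 20S core, Psma genes of the alpha ring, which gates the barrel, had log2 fold changes from -0.50 to 0.54 upon mixing of WT cells. In the beta ring, Psmb2, a structural subunit, had the largest value. Its level was 309 and 322 CPM in pure WT libraries A01 and A05, and 170 and 184 CPM in mixed WT libraries A02 and A06. The libraries of the groups did not overlap, yet the fold change of -0.82 (log2, SE 0.46) had a 95% interval of -1.78 to 0.13 and an adjusted p of 0.61. The catalytic genes had smaller values, -0.55 for Psmb5 (chymotrypsin-like activity), -0.28 for Psmb6 (caspase-like activity) and -0.13 for Psmb7 (trypsin-like activity). The interval for Psmb5, -1.62 to 0.52, still holds a decrease of more than 2-fold and a small increase.

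The largest values upon mixing of WT cells were those of 2 ATPases of the base, the ring that unfolds substrates. Psmc4 read 57.7 CPM in A01, 55.6 in A05, 0 in A02 and 22.7 in A06, and Psmc5 read 59.5, 30.9, 13.1 and 15.9 CPM in the same order. Both were lower in both mixed libraries, but A02 held 0 reads of Psmc4 and 1 read of Psmc5. The fold changes were -1.72 (SE 0.85, adjusted p 0.53) and -1.56 (SE 0.85, adjusted p 0.59). Psmg1, a chaperone that helps assemble the alpha ring, read 91.5 and 107 CPM in pure and 26.2 and 52.1 CPM in mixed WT cells, a fold change of -1.17 with a 95% interval of -2.59 to 0.24. Among the activators, which open the core without the base, Psme3 of the nuclear PA28 gamma complex read 146 and 150 CPM in pure and 52.4 and 95.2 CPM in mixed WT cells. Its fold change was -0.88 (95% interval -2.04 to 0.27, adjusted p 0.67). Psme1 and Psme2, which form the interferon-inducible PA28 complex, had fold changes of 0.014 and 0.30. The ubiquitin receptor Psmd4 and the deubiquitinase Psmd14, which cuts ubiquitin from the substrate, had fold changes of -0.42 and -0.44, each with an interval that includes 0.

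**Figure D2:**
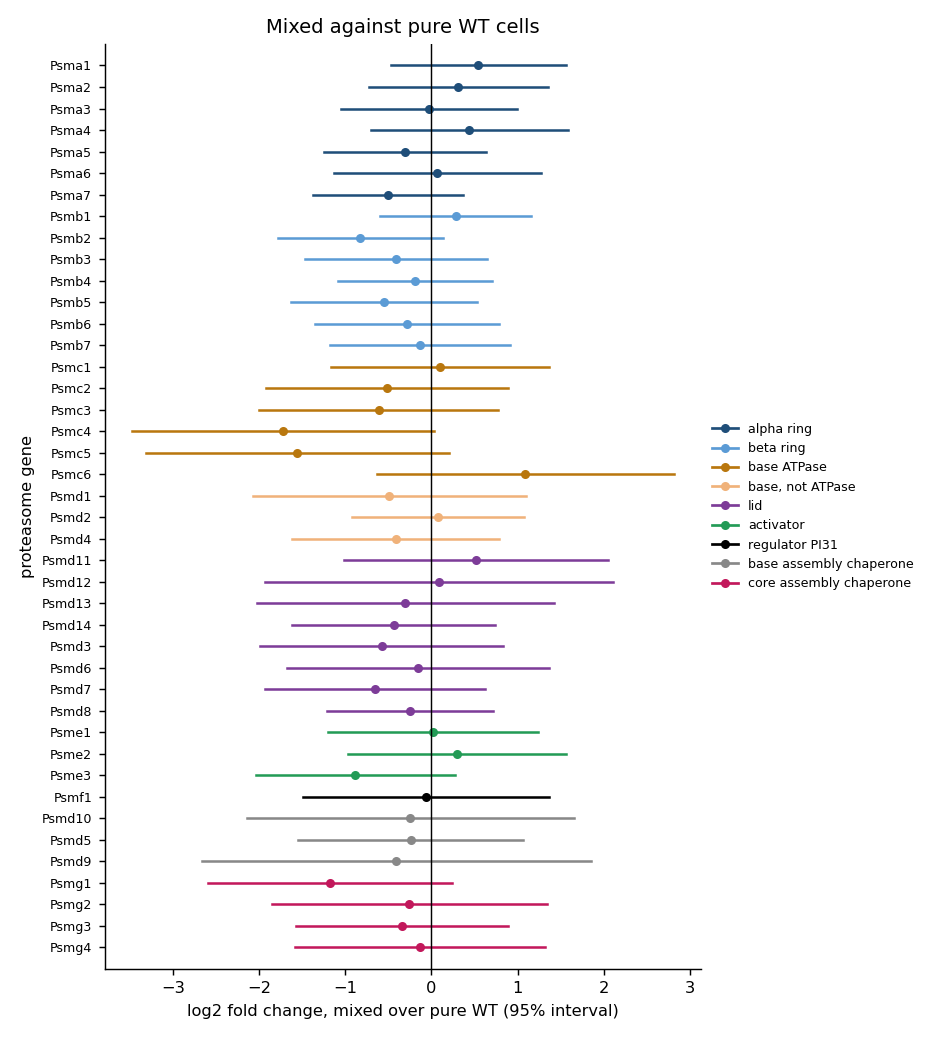
Log2 fold change of mixed over pure WT cells (x axis, points) with the 95% interval (lines) for each of the 42 tested proteasome genes (y axis), coloured by subcomplex. Every interval crosses 0, and 30 of the 42 points lie to the left of it.

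In the cancer cells, log2 fold changes upon mixing ran from -0.85 to 0.91, beside -1.72 to 1.09 in the WT cells. Of the 42 genes, 0 passed the adjusted or the unadjusted threshold. Of all tested genes the adjusted test called 0% and the unadjusted one 1.31%. DESeq2 on the 8 libraries called 0 members of the set. The median log2 fold change was -0.14, beside 0.032 over all tested genes. Libraries of the groups did not overlap for 4 genes that were higher in mixed cells (9.52%, against 13.8% of all genes) and 4 that were lower (9.52%, against 10.8%). The ATPase Psmc2 had a fold change of 0.88 (95% interval -0.49 to 2.24), its partner Psmc1 0.75 (-0.50 to 2.01) and the scaffold subunit Psmd1 of the base 0.80 (-0.79 to 2.39), which turned to -0.98 without library A04. Psma2 of the alpha ring had -0.73 (-1.76 to 0.29), which ran from -1.68 without A04 to -0.155 without A08. All 42 intervals included 0, and 35 lay within a 4-fold change in either direction.

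Whether WT and cancer cells changed differently upon mixing was tested as the difference of their fold changes. For 0 of the 42 genes this passed the adjusted threshold, where 0.076% of all tested genes did, and DESeq2 called 0. Psmb2 alone (2.38%) passed an unadjusted p of 0.05, against 7.28% of all tested genes. It was lower in mixed than in pure WT cells, as given above, whereas it read 194 and 218 CPM in pure cancer libraries A03 and A07 and 336 and 316 CPM in mixed cancer libraries A04 and A08. The 2 libraries of each group lay close together, and the 2 changes pointed in opposite directions without overlap. The difference was -1.48 (log2, SE 0.64, 95% interval -2.82 to -0.15, unadjusted p 0.0306 and adjusted p 0.622 in edgeR). Counted as molecule barcodes, which level off for abundant genes, the same difference was -0.17, and counted as estimated transcripts -0.89. The ATPases Psmc5 and Psmc4 had larger differences, -1.67 and -1.62, with wider intervals that both reach above 0.5, and Psmc2 and the lid subunit Psmd7 had -1.39 and -1.30.

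The second question is how cancer cells differ from WT cells. Over pure and mixed cultures, 14.2% of all tested genes passed the adjusted threshold between cancer and WT cells, whereas 0 of the 42 proteasome genes did. The share was 9.95% of all genes between the pure cultures and 6.42% between the mixed ones, again with 0 of the 42 genes in each. DESeq2 on the 8 libraries called 0 of the 42 in each of these comparisons, again without a share over all genes beside it. Without adjustment, 1 of the 42 genes passed over all cultures (Psmd8, against 24.7% of all tested genes), 1 in pure cultures (Psmc6, against 20.5%) and 0 in mixed cultures (against 16.4%). The median log2 fold change of cancer over WT cells was 0.068, beside 0.044 over all tested genes. In 41 of the 42 genes the 95% interval lay within a 4-fold change in either direction, and in 15 within a 2-fold change. A change of more than 4-fold between cancer and WT cells thus lay outside the interval for nearly all proteasome genes, while a 2-fold change did not for most of them.

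**Figure D3:**
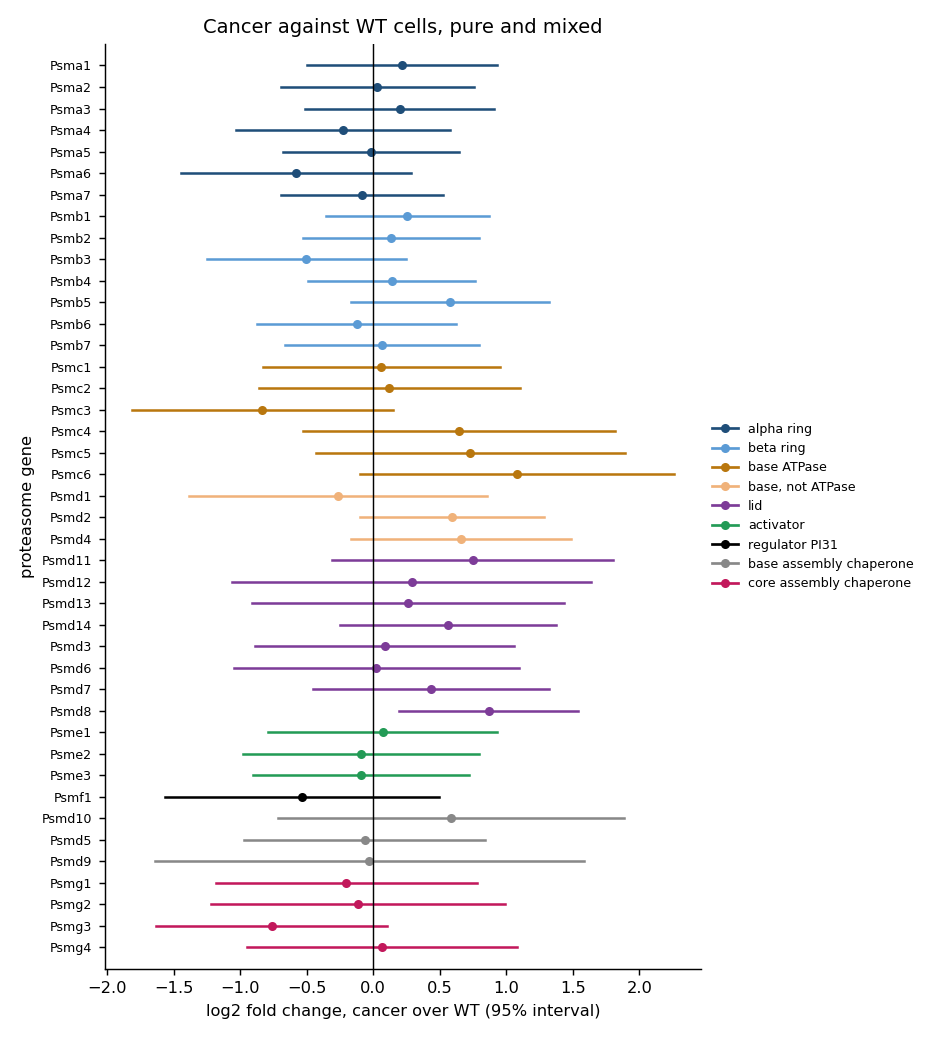
Log2 fold change of cancer over WT cells, averaged over pure and mixed cultures (x axis, points), with the 95% interval (lines) for each of the 42 tested proteasome genes (y axis), coloured by subcomplex. Psmd8 is the only gene whose interval excludes 0, from 0.20 to 1.54, and all 8 lid genes have points above 0.

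Psmd8 encodes a subunit of the lid (chr7:29174187-29180673, GRCm38). It read 326 and 269 CPM in pure and 288 and 222 CPM in mixed WT cells, against 467 and 649 CPM in pure and 339 and 555 CPM in mixed cancer cells, each with the lower well first. Every cancer library lay above every WT library, although mixed cancer library A04 and pure WT library A01 were close. The fold change was 0.87 (log2, SE 0.32, 95% interval 0.20 to 1.54), or 1.82-fold, with an adjusted p of 0.0813. Psmd8 was the 1 gene of the 42 (2.38%) for which all cancer libraries were above all WT libraries, against 8.24% of all tested genes. The 1 gene with the opposite pattern was Psma6 of the alpha ring, against 8.11% of all tested genes. It read 57.5 to 83.0 CPM in the 4 cancer libraries and 86.0 to 116 CPM in the 4 WT libraries, a fold change of -0.58 with a 95% interval of -1.45 to 0.28.

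The lid as a whole had positive values in cancer over WT cells for 8 of its 8 genes (against 52.4% of all tested genes), with a median of 0.36, and 0 passed the adjusted test (1, Psmd8, passed without adjustment). Reads on lid genes made up 0.0833%, 0.0684%, 0.0677% and 0.0520% of reads in WT libraries A01, A02, A05 and A06, and 0.110%, 0.107%, 0.106% and 0.0910% in cancer libraries A03, A04, A07 and A08. The groups did not overlap. Without Psmd8, the WT libraries held 0.0330% to 0.0510% and the cancer libraries 0.0378% to 0.0701%, which overlap. Counted as barcodes, the lid shares overlapped too, with 0.0933% to 0.160% in WT and 0.138% to 0.181% in cancer libraries. Without mixed cancer library A04 only 4 of the 8 lid genes had positive values, with a median of 0.094, and without pure cancer library A03 5 of the 8 did.

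Within the lid, the deubiquitinase Psmd14 had a fold change of 0.56 (95% interval -0.26 to 1.38) in cancer over WT cells. Its level was 91.5 and 122 CPM in pure and 65.5 and 86.1 CPM in mixed WT cells, against 215 and 108 CPM in pure and 121 and 109 CPM in mixed cancer cells, so that the high value rests on library A03. In the base, the ubiquitin receptor Psmd4 had 0.66 (-0.16 to 1.48). It read 65.5 to 116 CPM in the WT libraries and 89.2 to 153 CPM in the cancer libraries. In mixed cultures alone, where it read 65.5 and 74.8 CPM in WT and 134 and 145 CPM in cancer cells, its fold change was 0.96 with an adjusted p of 0.46. Psmd7, a lid subunit that pairs with Psmd14, had 1.09 in the mixed cultures (95% interval -0.20 to 2.38). A02 held 1 read of it, and the value was 0.584 without A02 and 3.56 without A06. The ATPases Psmc5 and Psmc4 had 1.57 and 1.46 in the mixed cultures. Psmc5 stayed between 1.41 and 1.84 with each library left out, but it held only 1 read in A02 and 7 in A06. Psmc4, with 0 reads in A02, was 1.06 without A02. The lowest adjusted p among the 6 ATPases in this comparison was 0.392 (edgeR).

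The ATPases of the base had values in both directions. Psmc6 read 10.98 and 16.9 CPM in pure and 26.2 and 31.7 CPM in mixed WT cells, against 47.2 and 50.9 CPM in pure and 30.5 and 51.9 CPM in mixed cancer cells. Pure cancer cells stood well apart from pure WT cells, with a fold change of 1.80 (95% interval 0.19 to 3.40, unadjusted p 0.0297 and adjusted p 0.179 in edgeR), but the counts were low, at 2 to 17 reads in the 6 libraries other than A04 and A05. Psmc3, another ATPase of the ring (chr2:91054016-91059438), pointed the other way. It read 422 and 243 CPM in pure and 328 and 138 CPM in mixed WT cells, against 236 and 56.9 CPM in pure and 250 and 46.7 CPM in mixed cancer cells. In every group the library from the lower well was the higher one, by 1.73 to 5.36 times, and the WT and cancer ranges overlapped. The fold change was -0.83 (SE 0.47, adjusted p 0.301) over all cultures and -1.23 (SE 0.67, adjusted p 0.311) in pure cultures.

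In the beta ring the catalytic Psmb5 had a fold change of 0.58 (95% interval -0.17 to 1.32) in cancer over WT cells. Psmb5 read 302 and 171 CPM in pure and 144 and 172.2 CPM in mixed WT cells, against 493 and 216 CPM in pure and 274 and 202 CPM in mixed cancer cells. Psmb6 and Psmb7 had -0.12 and 0.066. Psmb3 of the same ring had -0.76 (95% interval -1.81 to 0.29) in pure cultures, and Psmg3, a chaperone of core assembly, -0.76 (-1.63 to 0.11) over all cultures. Also in pure cultures, Psmd1 had -0.91 (-2.48 to 0.66) and the regulator Psmf1 -0.84 (-2.26 to 0.58). The activators Psme1, Psme2 and Psme3 had fold changes of 0.070, -0.093 and -0.094 in cancer over WT cells, and their 95% intervals lay within a 2-fold change in either direction.

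The libraries were also compared by well. The share of reads on proteasome genes was 0.745% to 0.835% in wells A01 to A04 and 0.503% to 0.662% in wells A05 to A08, with 1 library of every group in each set. The labels give the wells but do not say what the wells of a set share, so this is reported as a pattern of well numbers. The pattern was noticed in the shares of these same genes and the sets were formed afterwards. Counts of these genes by well, given below, therefore describe the pattern, and an excess over all genes is no independent support for it. Counted as estimated transcripts the sets also lay apart, at 0.819% to 1.055% and 0.581% to 0.794%. Counted as barcodes they overlapped, since A02 of the first set had 0.961% while A05 and A07 of the second had 1.10% and 1.02%. For Psmb4, Psmb6, Psmb7 and Psmd13, which are 4 of the 42 genes (9.52%), every library of wells A01 to A04 was above every library of wells A05 to A08, against 1.44% of all tested genes. For Psme1 alone (2.38%) every library was below, against 1.82% of all tested genes. Within groups, the lower well was the higher one in all 4 groups for 9 genes (21.4%, against 7.77% of all genes) and the lower one for 2 genes, Psmc6 and Psme1 (4.76%, against 12.5%).

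Psmd13, a lid subunit (chr7:140882394-140898642), was 1 of these 4 genes. It read 110, 118, 115 and 136 CPM in A01 to A04 and 42.2, 31.7, 38.9 and 25.9 CPM in A05 to A08. Each group thus held 1 high and 1 low library, and the mean levels of the 4 groups, from 74.8 to 80.8 CPM, were nearly equal. Its SD within groups was 47.8 to 77.5 CPM. The catalytic Psmb7 read 185 to 252 CPM in the first set and 145 to 171 CPM in the second, and Psme1 57.7 to 87.9 CPM and 101 to 132 CPM. The proliferation markers (Mki67, Top2a, Pcna and Ccnb1) summed to 459 to 740 CPM in wells A01 to A04 and to 154 to 522 CPM in wells A05 to A08, and their part in the proteasome values was not tested. Psmd13 overlaps Sirt3 on the opposite strand and a predicted gene on its own strand, and whether the authors' counting used strand is not given in the sources used here.

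**Figure D4:**
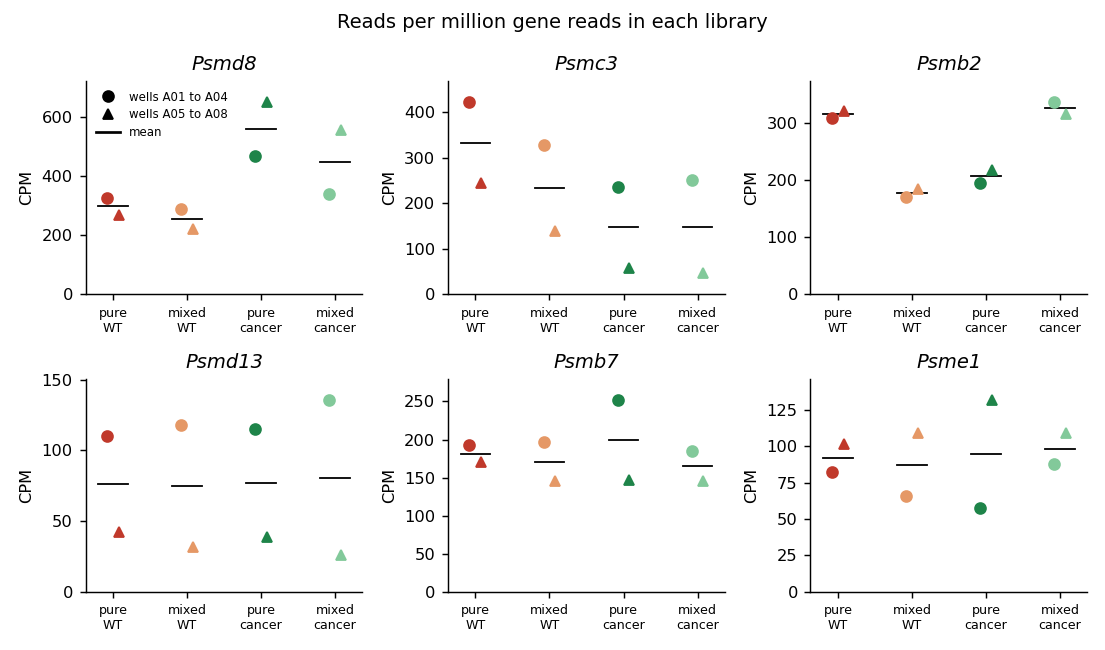
Level in CPM (y axis, from 0) of 6 proteasome genes in the 4 groups (x axis); circles are libraries of wells A01 to A04, triangles those of wells A05 to A08, and lines the means of 2 libraries. Psmd8 is higher in every cancer than in every WT library, Psmb2 is low in mixed WT and pure cancer cells, and Psmd13 and Psmb7 (high in A01 to A04) and Psme1 (low there) follow the wells.

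With the well set as a term in the fit, an alternative chosen after the data were seen, 2 of the 42 genes (against 16.9% of all tested genes) passed the adjusted threshold between cancer and WT cells over all cultures. Psmc3 had a fold change of -1.14 (SE 0.34, adjusted p 0.0103 in edgeR) and Psmd8 0.86 (SE 0.30, adjusted p 0.0316 in edgeR). In pure cultures Psmc3 passed with -1.47 (adjusted p 0.0229 in edgeR), where 12.4% of all tested genes did. In the other comparisons, which are both mixing comparisons, their difference and that of the mixed cultures, this fit called 0 of the 42. Over all tested genes, the deviations of same-set libraries from their group means were only weakly correlated between groups. The correlation ran from 0.045 to 0.21 over the 6 pairs of groups, and 3 pairs exceeded 0.1. Within wells A01 to A04 Psmc3 read 236 and 250 CPM in cancer against 422 and 328 CPM in WT libraries, and within wells A05 to A08 56.9 and 46.7 CPM against 243 and 138 CPM, so that the WT libraries were higher within each set. Without the well term, Psmc3 was called when cancer library A03 or A04 was left out, and in no other fit that left out 1 library. Without A03 it had -1.48 over all cultures and -2.60 in pure cultures, and without A04 -1.78 over all cultures. Without A07 it was -0.49 over all cultures and -0.594 in pure cultures, and not called. Psmb3 was called at -1.87 in pure cultures without A03 and was -0.231 without A07. Of all tested genes, the fit without A03 called 14.2% over all cultures and 8.13% in pure cultures, and that without A04 called 11.9% over all cultures. Each of these fits leaves 1 library in an arm, which is assumed to vary like the others.

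**Figure D5:**
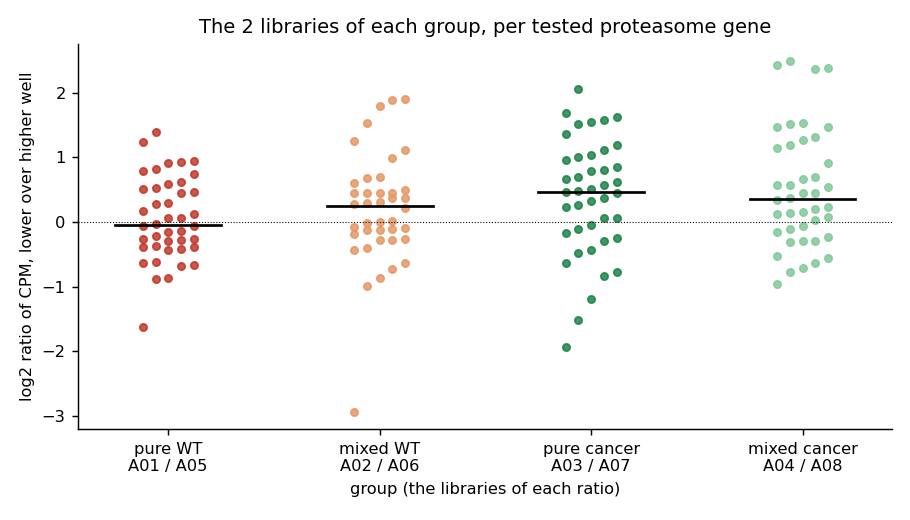
Log2 ratio of CPM between the library of the lower and that of the higher well (y axis) in each group (x axis), with 1 point for each tested proteasome gene and a line at the median of the plotted points. Psmc4 and Psmd10, with 0 reads in A02, are left out of the mixed WT column, and in that column, as in both cancer columns, the median lies above 0, while in pure WT cells it lies slightly below.

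Other genes of the ubiquitin and proteasome pathway were read from a list of 37 tested genes. Between mixed and pure WT cells, between mixed and pure cancer cells, in the difference of these changes and between mixed cancer and mixed WT cells, 0 of the 37 passed the adjusted edgeR test, and 1, 0, 2 and 4 passed an unadjusted p of 0.05, against the 9.67%, 1.31%, 7.28% and 16.4% of all tested genes given above. Between cancer and WT cells over all cultures, 2 passed, both higher in cancer cells, of which Maff is described here, and in pure cultures 1 did, against 14.2% and 9.95% of all tested genes. At an unadjusted p of 0.05 (edgeR), 4 of the 37 passed over all cultures and 3 in pure cultures, against 24.7% and 20.5% of all tested genes. Values were positive for 31 of the 37 in cancer over WT cells, with a median of 0.36, beside 26 of the 42 proteasome genes and 52.4% of all tested genes, whose median was 0.044. These counts of signs, and those by role, were not repeated with single libraries left out. By role, 11 of 12 enzymes that activate, conjugate or ligate ubiquitin were positive, 8 of 10 shuttle factors and partners of the p97 unfoldase, 7 of 8 other subunits and helpers, 3 of 4 transcription regulators and 2 of 3 ubiquitin genes.

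The gene of the list with the lowest adjusted p was Maff, which encodes a small Maf protein, the kind of partner with which NRF1 and its relatives bind DNA. Maff read 79.6 and 23.0 CPM in pure and 78.7 and 150 CPM in mixed WT cells, against 231 and 377 CPM in pure and 227 and 368 CPM in mixed cancer cells. All cancer libraries were above all WT libraries. Maff rose in cancer over WT cells by 1.92 (log2, SE 0.42, adjusted p 0.00168 in edgeR) over all cultures and by 2.59 (SE 0.59, adjusted p 0.00425) in pure cultures, although in pure cultures without A05 it was 2.04 and no longer called. Nfe2l1 itself, which encodes NRF1, had 0.47 (95% interval -0.87 to 1.81), the core assembly factor Pomp -0.27 (-1.04 to 0.51) and the ubiquitin receptor Adrm1 0.54 (-0.53 to 1.60). Of the immunoproteasome genes only Psmb10 was tested, with 0.35 (-0.66 to 1.37), while Psmb8 held 0 to 45 reads and Psmb9 0 to 11 reads per library. Among the other transcription regulators of the list, Nfe2l2 had the opposite sign in cancer over WT cells. Its fold change was -0.20 (-1.40 to 1.00) in pure and -1.10 (-2.34 to 0.14) in mixed cultures. The small Maf gene Mafg had 0.61 (-1.07 to 2.28) and 0.98 (-0.81 to 2.77), and Mafk was not tested.

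NRF1 and small Maf proteins bind antioxidant response elements, and the letters of their core, TGACNNNGC, were searched on both strands of the 250 bases before each gene start (RefSeq promoters, GRCm38.p6). Promoters were found for 35 of the 42 tested genes, 38 promoters in all. A match stood in 5 of the 38 (13.2%), against 10.2% of all 32851 promoters. The CCAAT box, whose letters are those of its name, stood in 12 of the 38 (31.6%), against 33.8% of all promoters. The 5 matches to the core are shown here because they are all the matches found, in the catalytic Psmb5 and Psmb6, the ATPase Psmc6, the lid subunit Psmd12 and the base chaperone Psmd9. Capitals mark the match, each sequence is written on the strand that holds it, and windows end at the edge of the searched region.
Psmb5 (chr14:54618024-54618052, minus strand): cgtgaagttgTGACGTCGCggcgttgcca
Psmb6 (chr11:70525338-70525356, plus strand): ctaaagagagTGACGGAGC
Psmc6 (chr14:45329587-45329615, minus strand): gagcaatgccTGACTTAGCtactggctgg
Psmd12 (chr11:107479278-107479299, minus strand): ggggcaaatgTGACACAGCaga
Psmd9 (chr5:123228149-123228177, plus strand): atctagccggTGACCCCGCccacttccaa
Counted from the start in the promoter table, the matches of Psmb6, Psmd9 and Psmb5 lay 5, 27 and 43 bases before it, and those of Psmc6 and Psmd12 223 and 243 bases before it. The RefSeq gene record of Psmb6 starts further upstream, at base 70525324, so that by this record the match lies inside the gene. Fold changes of these 5 genes in cancer over WT cells were 0.58 for Psmb5, -0.12 for Psmb6, 1.08 for Psmc6, 0.29 for Psmd12 and -0.030 for Psmd9, none of them called. A match is only a run of letters and does not show that a factor binds there.

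Some proteasome genes share sequence with copies elsewhere. In the last 500 bases of their GENCODE transcripts, 16 of the 42 tested genes share at least 1 window of 50 bases with another gene, and 5 (Psma5, Psmb3, Psmb5, Psmd1 and Psme2) share over 50% of their windows, mostly with unnamed gene models. The authors dropped reads with several equally good positions among RefSeq transcripts. Whether the copies are in that reference was not checked, so it is uncertain whether the levels of these 5 genes are affected. No window of Psmd8, Psmc3 or Psmb2 is shared, but Psmc3 overlaps Slc39a13 on the opposite strand.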

How the data were processed

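Per the paper's methods, the sample barcode was taken from read 1. BWA placed read 2 on RefSeq transcripts of mm10, reads with several equally good positions were dropped, and featureCounts assigned the rest to genes. The authors deposited raw read counts, barcode counts (different molecule barcodes per gene, at most 256) and estimated counts of transcripts derived from the barcodes. Their DESeq2 1.22.2 table, which holds means, log2 fold changes, standard errors and p-values, was not used. Read counts include amplification copies.

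All analyses used the deposited read counts of 8 libraries in R 4.3.3. Groups came from the labels and replicates are named by well. A spike-in and an eGFP entry, with 1 read in all, were left out. Genes were kept with filterByExpr (minimum count 10), and edgeR 4.0.16 (TMM factors, quasi-likelihood test) was fitted with 1 mean per group. Adjusted p-values are Benjamini-Hochberg over the 5264 tested genes, with 0.05 as the threshold for a call. Standard errors follow from the log2 fold change and the F statistic. CPM values are scaled by the TMM factors. The fit was also run on counts simulated with its own estimate of the spread. These hold no well pattern, so they cannot show how the fit handles one.

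Named genes are, in each comparison, the 5 members of largest absolute log2 fold change among those averaging 50 reads or more, the catalytic, ubiquitin-receptor, deubiquitinase and activator genes, and called pathway genes with Nfe2l1, Pomp and Adrm1. Psmc6, Psma6, Psmd13, Psmb4, Psmd10, Psmd12, Psmd9, Uba1, Nfe2l2, Mafg, Mafk and the immunoproteasome genes were named after their values were seen. The proteasome genes and the lists were chosen with earlier results of these data known. Alternatives were the barcode and transcript tables, upper-quartile and median-of-ratios factors, a minimum count of 50 and no filter, fits restricted to the 4 libraries of a comparison, leaving out each library, DESeq2 1.42.0 on 8 or 4 libraries, and unadjusted p. The well set was added after the data were seen. 1 labelled allele of the cancer cells and the values of 1 pathway gene are not reported here.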

Additional observations from a re-analysis of the deposited data

Results flagged for a closer look

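For 4 of the 42 tested proteasome genes, both mixed WT libraries lay on one side of both pure WT libraries and both mixed cancer libraries on the opposite side of both pure cancer libraries, which was so for 7.37% of all tested genes. The change upon mixing in WT minus that in cancer cells was -1.48 (log2, SE 0.64) for Psmb2, -1.39 (SE 0.95) for Psmc2, -1.30 (SE 0.86) for Psmd7 and 0.67 (SE 0.60) for Psmb1. The test of this difference gave adjusted p-values of 0.622, 0.811, 0.797 and 0.871 (edgeR), so the difference is not shown for any of them. Psmb2, Psmc2 and Psmd7 were lower in mixed WT and higher in mixed cancer cells, and Psmb1, a structural subunit of the beta ring, had the opposite order. In the shallowest library, A02, Psmd7 had 1 read and Psmc2 4 reads.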

How the results depend on the processing

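The groups share no replicate numbers in the labels, so no pairing came from these, and the only block fitted was the well set, which was formed after the data were seen. Leaving out 1 library moved 31 of the 44 values of proteasome genes named for a comparison by over 1.5 times or turned their sign. The count of called proteasome genes stayed at 0 in both mixing comparisons and between mixed cancer and mixed WT cells under every alternative run. In the difference of the mixing changes it was 0 except at unadjusted p, which gave 1. In pure cancer against pure WT cells it was 1 at unadjusted p, 1 with the well set as a term and 0 to 2 with each library left out. In cancer against WT cells over all cultures it was 1 at unadjusted p, 2 with the well set and 0 to 1 with each library left out. With each library left out, the members' median log2 fold change ran from -0.38 to 0.15 in mixed against pure cancer cells, from -0.42 to 0.17 in the difference of the mixing changes (-0.26 with no filter) and from -0.30 to 0.14 in pure cancer against pure WT cells. Median-of-ratios factors moved the median of all genes by 0.11 in the difference of the mixing changes, and by less than 0.1 in each other comparison. By barcode counts the summed share was 1.16% (pure) and 0.951% (mixed) for WT cells and 1.12% (pure) and 0.976% (mixed) for cancer cells, and by transcript counts 0.854% for pure WT and 0.881% for mixed cancer cells. Called pathway genes numbered 0 to 2 in pure cultures, 0 to 1 in mixed cultures (1, Uba1, with the well set) and 1 to 3 over all cultures with each library left out.

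None of the values that turned sign was called in any setting. In cancer against WT cells, barcode and transcript counts gave -0.15 and -0.0255 for Psmb7 and -0.069 and -0.0050 for Psme1, and transcript counts 0.054 for Psme2. In mixed against pure WT cells, barcode counts gave 0.21 for Psmb6, barcode and transcript counts 0.17 and 0.041 for Psmb7, and no filter and the well set -0.14 and -0.085 for Psme1. With each library left out, values that turned sign ran from -0.98 to 1.43 for Psmd1 in mixed against pure cancer cells. In cancer against WT cells they ran from -0.53 to 0.096 for Psmb6, -0.15 to 0.20 for Psmb7, -0.36 to 0.34 for Psme1, -0.66 to 0.13 for Psme2 and -0.25 to 0.22 for Psme3. In mixed against pure WT cells they ran from -7.51 to 1.25 for Nfe2l1 (0 reads in A02), -0.63 to 0.25 for Psmb6, -0.37 to 0.028 for Psmb7, -0.58 to 0.20 for Psme1 and -0.065 to 0.83 for Psme2. The causes were not tested. The shallow library A02, and 2 libraries per group, limit all mixed WT values.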
